A study of Mus musculus with 14 samples.

Results

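A set of 9 genes of the red blood cell lineage were followed through the RNA-seq libraries of a study of TAF9B, a subunit of the core promoter machinery. They were found by RefSeq identifier and symbol, 9 of the 23152 loci in the tables. They are the embryonic globins *Hba-x*, *Hbb-y* and *Hbb-bh1*, the adult alpha globin *Hba-a1*, the heme synthesis enzyme *Alas2*, the transcription factors *Gata1* and *Klf1*, the erythropoietin receptor *Epor* and the anion exchanger *Slc4a1*. All 9 had a row in all 6 tables, and none of these rows carried the status HIDATA (too many fragments to quantify) or FAIL.

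The 11 RNA-seq libraries, each the only one of its condition, were C57BL/6 throughout. ES cells and embryoid bodies (EBs) at day 2, 4 and 6 of motor neuron differentiation with retinoic acid and the smoothened agonist SAG came from the wild type (WT) JM8 clone or from the TAF9B -/- (KO) Taf9b_BG10 clone, so each genotype was 1 line. The newborn libraries were spinal column, WT and KO, and spinal cord, WT only. The column preparations were lumbar and came from littermates, and the mice descended from KO ES cells. Peaks of TAF9B and RNA POL2 were called in WT motor neuron EBs of the HBG3 line, differentiated for 8 days, so the line and the day differ from those of the RNA libraries.

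Red blood cells develop in waves. Primitive red cells of the yolk sac carry hemoglobin made with *Hba-x*, *Hbb-y* and *Hbb-bh1*, and the definitive cells that follow, made in fetal liver and later in bone marrow, carry the adult alpha and beta chains. GATA1 and KLF1 bind and activate globin and heme genes, erythropoietin keeps the precursors alive through its receptor, and ALAS2 starts heme synthesis in these cells. At birth, red cells circulate through every tissue, and the marrow spaces of the vertebrae are being filled.

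Along each globin cluster the embryonic genes lie ahead of the adult ones. In mm9, *Hba-x* was at chr11:32176600-32178115, *Hba-a1* began 7.08 kb further along the same strand at chr11:32183675-32184493, and *Hba-a2* began another 12.8 kb on. On the minus strand of chromosome 7, *Hbb-y* (chr7:111000268-111001721) was followed by *Hbb-bh1* (chr7:110990152-110991676) and by the adult beta genes, called *Hbb-b1* and *Hbb-b2* in the gene models of this build and *Hbb-bs* and *Hbb-bt* in RefSeq. The tables list a single identifier, NM_001083955, at both adult alpha loci, and the row inside the *Hba-a1* gene model was taken as *Hba-a1*. The coding sequences of *Hba-a1* and *Hba-a2* differed at 1 of 429 bases, as did those of *Hbb-b1* and *Hbb-b2* at 1 of 444, so the split of reads between each pair is uncertain. The embryonic genes were distinct in sequence. *Hba-x* was 62.0% identical to *Hba-a1*, and *Hbb-y* was 74.3% identical to *Hbb-b1* and 76.3% to *Hbb-bh1*.

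The promoters of an embryonic and an adult gene from each cluster are shown because their transcripts differed widely in level in newborn tissue. *Hbb-bh1*, lower than *Hbb-y* in both newborn columns, had no promoter entry. Each line is the stretch of 150 bases before the start site (RefSeq, GRCm38.p6), with capitals for matches on either strand to 4 short motifs. These were GATAA, a core bound by GATA factors, then CACCC, a core bound by KLF factors, then CCAAT, the box of that name, and TATAA, part of the TATA box.
Hba-x (chr11:32276450-32276599, plus strand): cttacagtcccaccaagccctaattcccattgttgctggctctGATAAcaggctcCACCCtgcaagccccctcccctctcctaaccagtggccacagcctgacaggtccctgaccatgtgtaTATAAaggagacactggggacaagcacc
Hba-a1 (chr11:32283522-32283671, plus strand): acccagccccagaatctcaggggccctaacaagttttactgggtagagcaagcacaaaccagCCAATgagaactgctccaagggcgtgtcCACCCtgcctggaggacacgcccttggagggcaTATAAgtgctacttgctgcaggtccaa
Hbb-y (chr7:103853208-103853357, minus strand): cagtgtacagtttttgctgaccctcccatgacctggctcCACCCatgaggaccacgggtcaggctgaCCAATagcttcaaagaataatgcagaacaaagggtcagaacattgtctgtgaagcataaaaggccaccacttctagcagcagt
Hbb-b1 (chr7:103827929-103828078, minus strand): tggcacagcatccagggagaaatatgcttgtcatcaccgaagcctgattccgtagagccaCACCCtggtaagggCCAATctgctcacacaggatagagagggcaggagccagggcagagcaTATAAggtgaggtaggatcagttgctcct

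All 4 windows held CACCC. *Hba-x* alone of these 4 held GATAA, and *Hbb-y* alone had no TATAA. A promoter entry was found for 7 of the 9 genes, all but *Hbb-bh1* and *Slc4a1*. CACCC was in 7 of these 7 windows, against 36.9% of 27025 promoters. GATAA was in 4 of 7 (*Hba-x*, *Alas2*, *Klf1* and *Epor*), against 13.6%. CCAAT was in 3 of 7, against 25.3%, and TATAA in 2 of 7, against 14.7%. No match overlapped another in the 4 windows printed.

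As a check of the labels, *Taf9b* was measured in every library. It was at 0.537 FPKM (fragments per kilobase of transcript, scaled to the fragments of the library) in ES cells labelled WT and 3.06 in those labelled KO. In EBs it was at 0.516 and 4.08 on day 2, 1.96 and 4.27 on day 4, and 1.37 and 4.01 on day 6, WT first. *Taf9b* FPKM was thus higher in each culture library labelled KO, against its label. In the KO line a LacZ-Neo cassette stands in place of the coding exons, and an FPKM over the whole gene does not separate these from the remaining transcript. On day 6 all 5 neuron markers of the lists below were past 2-fold lower and all 4 ES cell markers past 2-fold higher under the KO label. The paper reports these directions for KO cells by qRT-PCR of motor neuron markers, *Pou5f1* and *Nanog*. Whether labels or columns were exchanged, or the fragments came from the targeted allele, was not tested. In spinal column *Taf9b* was at 6.65 in the library labelled WT and 3.31 in that labelled KO, and in spinal cord at 7.44. Libraries are therefore named by their label. The neuronal marker *Tubb3* reached 749 FPKM in cord, and *Pou5f1*, an ES cell gene, was listed at 0 in the 3 newborn libraries. *Col1a1*, a bone and connective tissue gene, was at 1423 in the WT-labelled column and 68.9 in cord. It was at 158 and 170 in WT- and KO-labelled ES cells, lines that were grown on feeder layers of mouse embryonic fibroblasts. The part of feeder cells in these libraries was not tested.

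**Figure D1:**
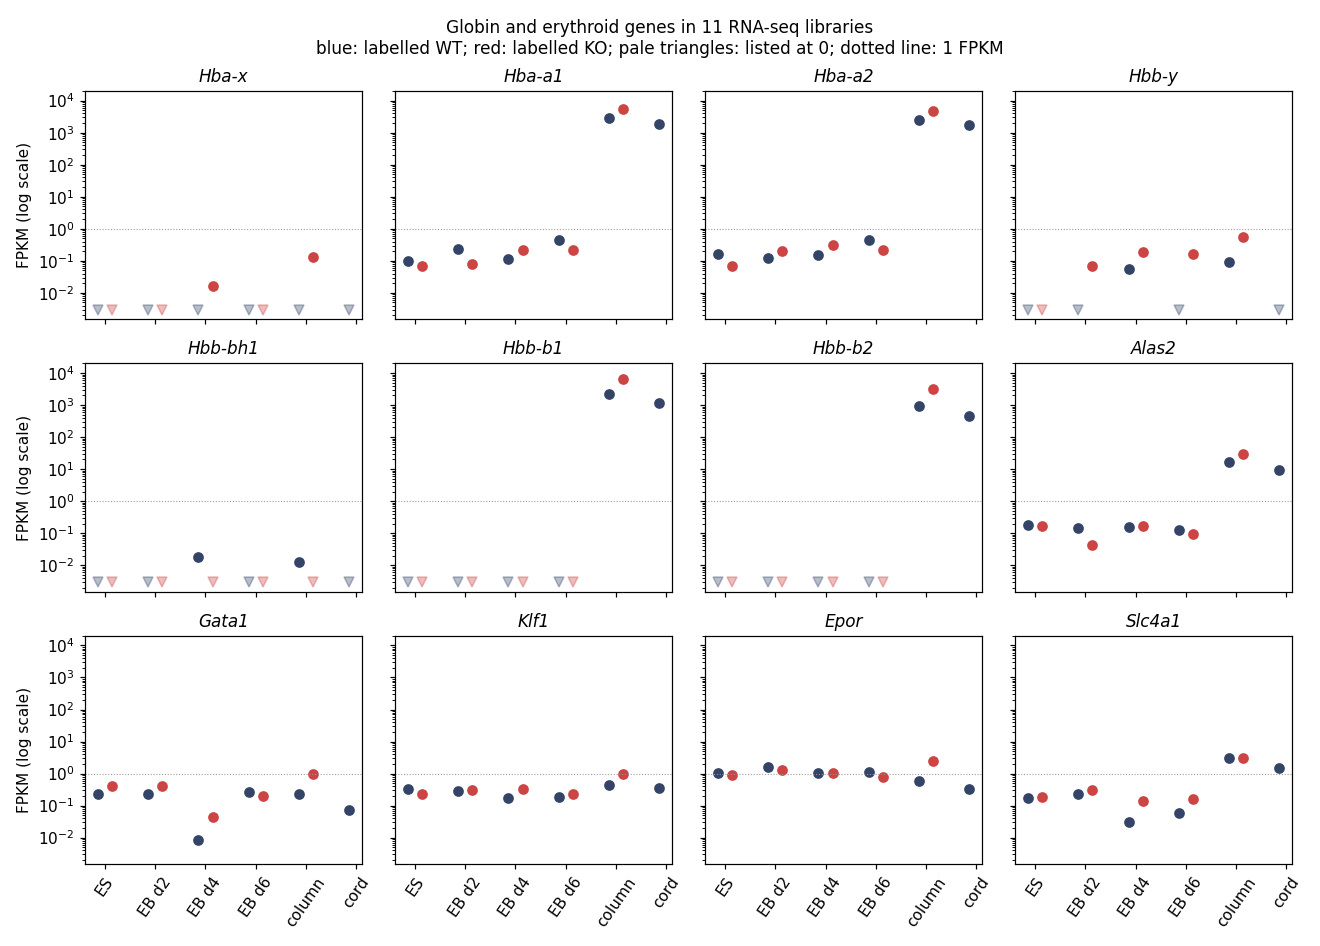
FPKM on a log scale (vertical) of the 9 genes and 3 further adult globin loci in ES cells, EBs at day 2, 4 and 6 and newborn spinal column and cord (horizontal), 1 point per library, blue for labelled WT and red for labelled KO, with pale triangles for values listed at 0. Embryonic globins stay under 1 FPKM in all 11 libraries, while the adult globin loci are at 469 FPKM or more in the 3 newborn libraries and under 1 in the others.

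Embryonic globin transcripts were close to absent at every stage. *Hba-x*, the zeta-type alpha chain, was listed at 0 in 9 libraries, at 0.0166 FPKM in KO-labelled day 4 EBs and at 0.13 in the KO-labelled column. *Hbb-bh1*, a beta-type chain of primitive cells, was above 0 in 2 libraries, at 0.018 in WT-labelled day 4 EBs and 0.0122 in the WT-labelled column. Neither gene reached 1 FPKM anywhere.

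*Hbb-y*, the epsilon-type beta chain, was detected most often of the 3, in 6 of 11 libraries. In ES cells it was listed at 0 under both labels. In EBs it was at 0 (WT-labelled) and 0.0706 FPKM (KO-labelled) on day 2, at 0.0569 and 0.19 on day 4, and at 0 and 0.16 on day 6. The KO-labelled value was the higher of the pair at all 3 EB stages. It was also higher in spinal column, at 0.568 against 0.0901, and cord was at 0. With 1 library per condition and values under 1 FPKM, these differences have no replicate check.

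The adult globins divided the libraries into culture and newborn tissue. *Hba-a1* was between 0.0711 and 0.452 FPKM in the 8 culture libraries and at 2938, 5384 and 1899 FPKM in WT-labelled column, KO-labelled column and cord. *Hba-a2* followed it, from 0.0712 to 0.452 in culture and at 2544, 4742 and 1745 in the same order of newborn libraries. *Hbb-b1* and *Hbb-b2* were listed at 0 in all 8 culture libraries, where the adult alpha loci were always above 0. In newborn tissue *Hbb-b1* was at 2180, 6752 and 1155 FPKM and *Hbb-b2* at 965, 3076 and 469. Loci with a usable status were ranked within each library, which does not depend on scaling. *Hba-a1* was number 5 in the WT-labelled column and number 7 in the KO-labelled column and in cord. *Hbb-b1* was number 19, 3 and 25. The ranks leave out 71 loci in the columns and 45 in cord, 13 and 2 of them with status HIDATA, so some abundant loci may be missing.

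The embryonic share of all globin FPKM was 0.00119% in the WT-labelled column, 0.0035% in the KO-labelled column and 0% in cord. Globins together made up 1.74%, 2.63% and 1.28% of the summed FPKM of these libraries. In culture the embryonic share was 0% in both ES cell libraries and in WT-labelled EBs of day 2 and 6. It was 20.2% in KO-labelled day 2 EBs, 22.0% and 28.6% in WT- and KO-labelled day 4 EBs and 26.4% in KO-labelled day 6 EBs. The summed globin level behind these last 4 shares was only 0.34 to 0.725 FPKM, so no order among them was read.

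The chains differed in balance between the newborn libraries. Adult alpha FPKM summed over both loci was 1.74 times the beta sum in the WT-labelled column, 1.03 times in the KO-labelled column and 2.24 times in cord. Within each pair of near-identical copies the ratio varied less, from 1.09 to 1.16 for *Hba-a1* over *Hba-a2* and from 2.2 to 2.46 for *Hbb-b1* over *Hbb-b2*. These are ratios inside a library and do not change with its scaling.

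**Figure D2:**
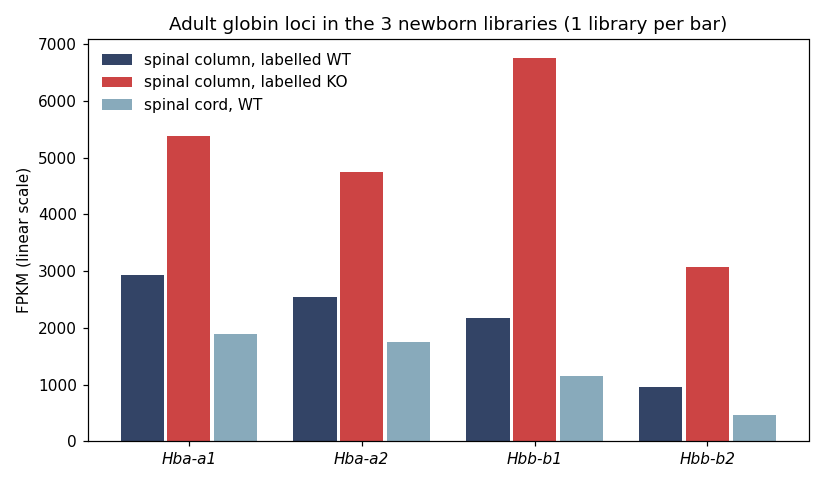
FPKM on a linear scale (vertical) of the 4 adult globin loci (horizontal) in WT-labelled column, KO-labelled column and WT cord, 1 library per bar and so no error bars. Each locus is highest in the KO-labelled column and lowest in cord, with *Hbb-b1* at 6752 FPKM in the former and 1155 in the latter.

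The other 5 genes separated into those that followed the adult globins and those that did not. *Alas2*, specific to erythroid heme synthesis, was between 0.0442 and 0.174 FPKM in the culture libraries and at 17.0, 29.6 and 9.09 in WT-labelled column, KO-labelled column and cord. *Slc4a1*, the band 3 anion exchanger of the red cell membrane, was between 0.0304 and 0.318 in culture and at 3.08, 2.96 and 1.55 in newborn tissue. For both genes all 3 newborn values were above all 8 culture values.

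*Gata1* was low at every stage. It was at 0.228 and 0.424 FPKM in ES cells (WT-labelled, then KO-labelled) and at 0.228 and 0.42 in day 2 EBs. On day 4 it was at 0.00865 and 0.0441, its lowest pair, and on day 6 at 0.257 and 0.198. In newborn tissue it was at 0.224 in the WT-labelled column, 0.958 in the KO-labelled column and 0.0732 in cord, so newborn and culture values overlapped.

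*Klf1*, whose product activates the adult beta globin promoter, stayed between 0.174 and 0.326 FPKM in culture. It was at 0.443, 0.943 and 0.357 in WT-labelled column, KO-labelled column and cord, above this culture range in each. The ES cell library normalized together with cord was at 0.354, so cord did not differ from it. *Epor* was the one gene of the 9 to pass 1 FPKM in culture, in 6 of 8 libraries. It was at 1.07 and 0.918 in ES cells, 1.58 and 1.34 on day 2, 1.06 and 1.06 on day 4, and 1.12 and 0.781 on day 6, WT-labelled first. It was lower in the WT newborn libraries, at 0.586 in column and 0.342 in cord, and highest of all in the KO-labelled column, at 2.54.

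In culture the 2 labels gave no difference past 2-fold in any of these genes above 1 FPKM. *Epor* was the only one to pass that level, and its log2 ratio of KO- over WT-labelled was -0.22 in ES cells, -0.24 on day 2, -0.00 on day 4 and -0.52 on day 6. Of all expressed genes, the share past 2-fold higher was 0.541%, 1.19%, 12.1% and 10.5% in these 4 pairs, and the share past 2-fold lower 0.591%, 1.4%, 4.43% and 9.93%. Between ES cells and day 6 EBs *Epor* differed by 0.07 on the log2 scale in the WT-labelled line (all expressed genes 23.2% higher, 15.1% lower), across tables that were normalized separately. The median of all expressed genes between these libraries was 0.20, and dividing by the FPKM sum turned *Epor* to -0.34 and the split of all expressed genes from 3017 higher and 1959 lower to 1974 and 3045. In the KO-labelled line no gene of the 9 passed 1 FPKM in either library (16.9% and 9.54% of all expressed genes). The median of all expressed genes was 0.15 there, and the same division moved their split from 2175 higher and 1227 lower to 1542 and 1988.

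Between the labels at each of the 4 culture stages, the wider erythroid lists had 0 to 3 genes each past 2-fold. None of 11 measured heme synthesis genes other than *Alas2* was past 2-fold at any of these stages. Of 5 measured erythroid transcription factors, 2 were past 2-fold higher in KO-labelled day 4 EBs, *Gata2* (3.94 against 0.417 FPKM) and *Zfpm1*, the GATA1 cofactor (6.71 against 2.53). *Gata2*, a stem and progenitor factor also used in neural tissue, was again higher on day 6, at 7.87 against 2.84. Of 7 further signalling genes, 2 were higher on day 4, the stem cell factor receptor *Kit* (16.4 against 7.69) and *Stat5a* (2.94 against 1.42), and none was past 2-fold at the other stages. Carbonic anhydrase *Car2*, of the enzyme and iron uptake list, was lower in ES cells (11.8 against 35.6), on day 2 (9.6 against 28.5) and on day 4 (29.5 against 73.1). Of the 9 measured genes of that list *Tspo2* was also lower on day 2, *Gclm* and *Cpeb4* were higher on day 4, and on day 6 *Gclm* was higher (68.9 against 26.9) and the peroxidase *Prdx2* lower (286 against 744). Membrane genes were not past 2-fold in ES cells or on day 2, and 2 of 4 were higher on day 4, *Dmtn* (1.53 against 0.466) and *Rhd* (3.87 against 0.909). Of 6 membrane genes on day 6, 1 was higher (*Aqp1*, 1.57 against 0.642) and 2 lower, *Epb41* at 13.3 against 45.9 and *Add2* at 0.587 against 4.99. Both encode proteins of the membrane skeleton that other cell types, neurons among them, also use. Markers of other cells moved beside them. On day 4 all 4 ES cell markers were past 2-fold higher under the KO label, summing to 167.5 against 26.2 FPKM. So were both measured endothelial markers, *Pecam1* (6.81 against 1.13) and *Eng* (9.84 against 2.61), the list summing to 19.2 against 5.29. Both were also present in WT-labelled ES cells, at 15.4 and 6.79. Under 1 FPKM in both day 4 libraries, *Kdr*, *Tie1*, *Etv2* and *Fli1* were lower under the KO label and *Cdh5* and *Tek* higher. On day 6 the ES cell markers, at 823 against 293, and 3 of 3 endothelial markers were again past 2-fold higher, and all 5 neuron markers lower, summing to 110 against 869. Of the erythroid list genes higher on day 4, *Kit*, *Rhd* and *Dmtn* were at 13.3, 4.4 and 14.2 FPKM in WT-labelled ES cells. *Gata2*, *Zfpm1* and *Stat5a* were at 1.13, 4.08 and 1.97 there, under their KO-labelled day 4 values. *Gclm* and *Cpeb4* were at 74.1 and 2.31. The part of these markers in the differences of day 4 and day 6 was not tested.

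Newborn cord was set against the ES cell library of the same table. Of the 4 genes above 1 FPKM, 3 were past 2-fold higher in cord (all expressed genes 30.5%) and 1 lower (35.7%). Each of the 4 passed 1 FPKM only in the library where it was higher, so the filter largely set these counts. *Hba-a1* had a log2 ratio of 14.13, from 0.106 FPKM in ES cells to 1899 in cord. For *Alas2* it was 5.58, from 0.19 to 9.09, and for *Epor* -1.76, from 1.16 to 0.342. *Slc4a1* was 8.01-fold higher in cord, at 1.55 against 0.193. All expressed genes had a median log2 ratio of -0.26, and relative to it *Epor* was at -1.50. *Hbb-b1* and *Hbb-b2* were listed at 0 in ES cells and have no ratio. Scaling by the FPKM sum moved the split of all expressed genes from 4370 higher and 5122 lower to 5607 and 3529, and kept the direction of these 4 genes.

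The other erythroid lists held genes past 2-fold in both directions between ES cells and cord. Of 11 heme synthesis genes besides *Alas2*, 1 was past 2-fold higher in cord (*Uros*, 6.28 against 2.64 FPKM) and 3 lower, with *Cpox* lowest at 4.92 against 27.0. Of 9 further transcription factors, 4 were higher and 2 lower, from *Bcl11a* (27.4 against 0.394), the repressor of embryonic globins that is also a neuronal factor, to *Myb* (0.236 against 4.17). Of 9 membrane genes, 3 were higher and 2 lower, with *Add2* at 19.2 against 0.0644 and *Rhd*, a blood group protein, at 0.833 against 4.79. Of 9 enzyme and iron uptake genes, 2 were higher and 4 lower, and the transferrin receptor *Tfrc* was lowest at 8.65 against 70.7. Of 7 signalling genes besides *Epor*, 2 were higher and 2 lower. Scaled by the FPKM sum, the genes past 2-fold higher and lower were 2 and 1 in heme synthesis, whose median went from -0.44 to 0.19, 5 and 2 among transcription factors, 5 and 2 in the membrane list, 2 and 3 among enzymes and 3 and 1 in signalling.

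Column and cord, both WT, are in tables normalized separately, so their comparison is a description. The 3 genes above 1 FPKM were all higher in column but none past 2-fold, although *Slc4a1* passed it when centred on the median of all genes (17.3% of all expressed genes were past 2-fold higher and 16% lower). *Hba-a1* was 1.55-fold, *Alas2* 1.88-fold and *Slc4a1* 1.99-fold higher in column. *Hbb-b1* was 1.89-fold and *Hbb-b2* 2.06-fold higher. All expressed genes had a median of -0.07 on the log2 scale. Scaled by the FPKM sum, the split of all expressed genes went from 2442 higher and 2260 lower to 1989 and 3292, and the folds of the same genes, in that order, became 1.28, 1.55, 1.65, 1.56 and 1.70.

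Of 6 measured myeloid genes, 4 were past 2-fold higher in column than in cord and none lower. Of 4 measured megakaryocyte and platelet genes, 2 were higher and 1 lower (*Gp1ba*, 0.458 against 1.07 FPKM). *S100a8*, a neutrophil calprotectin subunit, was at 406 FPKM in column and 30.8 in cord, and *Pf4*, a platelet chemokine, at 116 and 17.3. The macrophage genes *Csf1r* (18.5 against 11.7) and *Adgre1* (2.78 against 2.42) differed by less than 2-fold. Of 8 measured erythroid transcription factors, 2 were past 2-fold higher and 1 lower, and 1 and 1 when scaled by the FPKM sum. Signalling genes besides *Epor* were 4 of 5 higher and none lower (3 and 0 scaled), membrane genes besides *Slc4a1* 4 of 8 higher and 1 lower (4 and 2 scaled), and enzyme, chaperone and iron genes 2 of 10 higher and none lower (1 and 3 scaled). None of 11 heme synthesis genes besides *Alas2* was past 2-fold (0 and 1 scaled). Markers of other tissues past 2-fold higher in column were 6 of 7 endothelial (4 scaled), 2 of 2 lymphoid, 5 of 5 cartilage and bone and 5 of 5 skeletal muscle genes, and 3 of 5 neuron markers were lower (5 scaled). Their part in the differences of the erythroid genes was not tested. In bulk tissue, fewer cells of a type and less RNA per cell cannot be told apart.

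In spinal column 3 of the 4 genes above 1 FPKM were higher under the KO label. *Hba-a1* was 1.83-fold higher in the library labelled KO (log2 ratio 0.87) and *Alas2* 1.74-fold (0.80). *Epor* was 4.33-fold higher (2.11), at 2.54 against 0.586 FPKM, and *Slc4a1* was at 2.96 against 3.08 (-0.06). Of these 4 genes above 1 FPKM, 1 was past 2-fold higher and none lower, against 9.07% higher and 8.51% lower of all expressed genes. Their median log2 ratio was 0.84 against 0.06. The gene past 2-fold, *Epor*, passed 1 FPKM only in the KO-labelled column, so its place in the count and the median depends on its own difference. *Gata1* (4.28-fold, 0.958 against 0.224 FPKM) and *Klf1* (2.13-fold, 0.943 against 0.443) were also higher in the KO-labelled library but stayed under 1 FPKM.

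Adult beta globin differed by more than alpha between the 2 columns. *Hbb-b1* was 3.10-fold and *Hbb-b2* 3.19-fold higher in the KO-labelled library, and *Hba-a2* 1.86-fold. The *Hba-a1* level per unit of *Alas2* was similar in the 3 newborn libraries, at 172 in WT-labelled column, 182 in KO-labelled column and 209 in cord. Per unit of *Slc4a1* it was 955, 1820 and 1228.

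The scaling of this table matters for these folds. The FPKM sum of the KO-labelled library was 1.53 times that of the WT-labelled one, and dividing by it left *Hba-a1* 1.20-fold, *Alas2* 1.14-fold, *Epor* 2.83-fold, *Hbb-b1* 2.02-fold and *Hbb-b2* 2.08-fold higher, with *Slc4a1* 1.59-fold lower. It lowered all log2 ratios by 0.61, and the split of all expressed genes went from 1288 higher and 1208 lower to 434 and 3853.

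**Figure D3:**
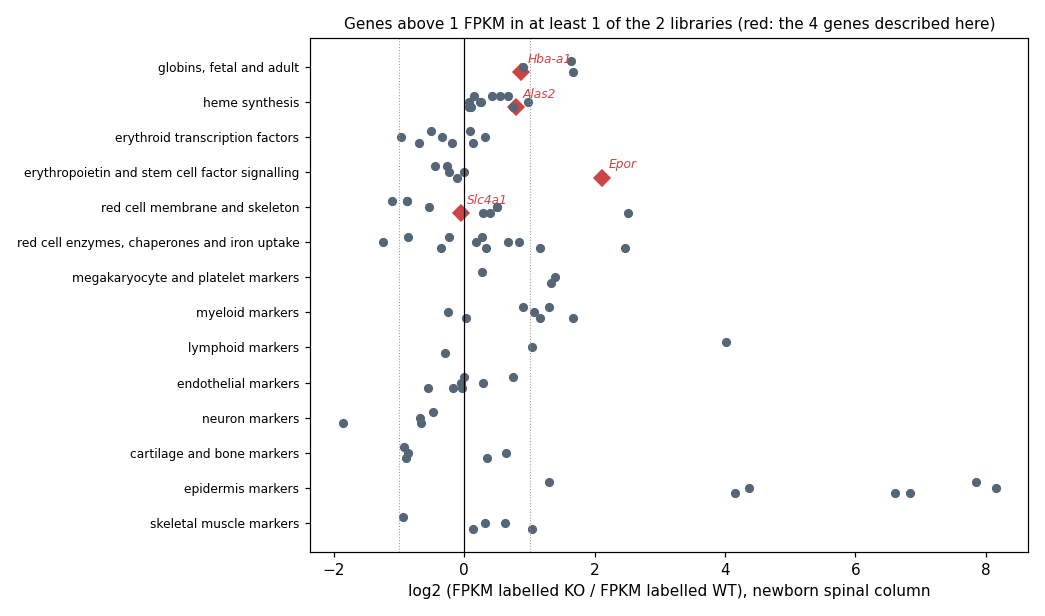
Log2 ratio of FPKM in the KO-labelled over the WT-labelled newborn spinal column (horizontal) for genes above 1 FPKM in at least 1 of them and above 0 in both, 1 point per gene, by gene list (vertical), with *Hba-a1*, *Alas2*, *Epor* and *Slc4a1* as red diamonds and dotted lines at 2-fold. *Epor* at 2.11 stands to the right of the other genes of its list, and the epidermis markers reach furthest right.

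Heme synthesis had no gene past 2-fold between the columns. All 11 measured besides *Alas2* had a higher value in the KO-labelled column as deposited, with a median log2 ratio of 0.26 and a range from 0.07 (*Slc25a38*, the mitochondrial glycine carrier) to 0.97 (*Uros*). Scaled by the FPKM sum, this median was -0.35. Of 8 other transcription factors above 1 FPKM, none was past 2-fold, 3 were higher and 5 lower, with *Lmo2* highest at a log2 ratio of 0.32 and *Runx1* lowest at -0.98. Centred on the median of all genes, 1 of these 8 was past 2-fold lower, and scaled by the FPKM sum 3 were. Under 1 FPKM in both columns, as *Gata1* and *Klf1* were, *Myb* was at 0.907 in the KO-labelled column against 0.226, *Gfi1b* at 0.44 against 0.154 and *Nfe2* at 0.84 against 0.86.

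Of 5 measured genes of erythropoietin and stem cell factor signalling other than *Epor*, none was past 2-fold. *Cish*, a STAT5 target, was at 19.5 FPKM in both columns, and *Epo* itself was listed at 0 in the 3 newborn libraries. *Kit* and *Jak2* had no usable value there. Among 9 membrane genes besides *Slc4a1*, 1 was past 2-fold higher, *Rhd* (1.73 against 0.305 FPKM), and 1 lower, *Add2* (3.99 against 8.59). Among 11 enzyme, chaperone and iron genes, 2 were higher, *Car1* (1.39 against 0.253), a carbonic anhydrase of red cells, and the biliverdin reductase *Blvrb* (37.3 against 16.7), and *Cpeb4* was lower (log2 ratio -1.25). Scaled by the FPKM sum, 1 signalling gene was past 2-fold lower, the membrane genes were 1 higher and 4 lower, and the enzyme, chaperone and iron genes 1 higher and 2 lower.

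Markers of other tissues were compared between the same columns. Of 8 myeloid markers, 5 were past 2-fold higher in the KO-labelled column and none past 2-fold lower. The list summed to 582 FPKM under the WT label, 1252 under the KO label and 67.95 in cord. The macrophage gene *Csf1r* was lower, at 15.6 against 18.5, and *Ptprc* was at 1.11 against 1.09. *S100a8* was at 855 against 406, and *Elane*, a neutrophil elastase, at 1.76 against a listed 0. Megakaryocyte and platelet markers summed to 307 against 123 FPKM, with 2 of 3 measured past 2-fold higher. Of 7 endothelial markers none was past 2-fold, with a median log2 ratio of -0.03. Of 4 neuron markers all were lower, 1 past 2-fold. Of 5 cartilage and bone markers none was past 2-fold, 2 were higher (*Ibsp*, 168 against 109, and *Sp7*) and 3 lower (*Col1a1*, 753 against 1423, *Col2a1* and *Acan*). Scaled by the FPKM sum, the markers past 2-fold higher were 2 of 8 myeloid ones, *S100a8* no longer among them, and none of 3 megakaryocyte and platelet ones. By that scaling 1 endothelial marker, all 4 neuron markers and 3 of the cartilage and bone markers were past 2-fold lower.

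Epidermal genes differed most. The list, chosen after its values were seen, summed to 866 FPKM in the KO-labelled column, 14.8 in the WT-labelled column and 26.1 in cord. All 7 were past 2-fold higher, 6 when scaled by the FPKM sum, *Krt10* at 352 against 3.60 and *Krt5* at 68.8 against 0.599. Skeletal muscle genes, also chosen afterwards, summed to 13360 and 7633 FPKM, with *Tnnc2* higher (8515 against 4167) and *Myh3* lower (218 against 420) in the KO-labelled library. Their part in the globin, *Alas2* and *Epor* differences was not tested.

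The profiles across the 11 libraries were compared with those of 15836 other loci by Pearson correlation of log2(FPKM + 0.1), as a description. The mean profile of the embryonic globins was most like *Krt5* (0.952), then *2610528A11Rik* (0.912), *S100a14* (0.909), *Pla2g2f* (0.905) and *Krt78* (0.902), of which the keratins and *S100a14* are epithelial genes. It rests on *Hbb-y* and *Hba-x* values under 1 FPKM, highest in the KO-labelled column. The mean profile of *Alas2*, *Gata1*, *Klf1*, *Epor* and *Slc4a1* was most like *Krt80* (0.984), *Stfa3* (0.977), *Tnnc2* (0.974), *Prr29* (0.973) and *Mpo* (0.973), the myeloperoxidase of neutrophil precursors. In newborn tissue each locus from *Krt80* to *Mpo* was higher in the WT-labelled column than in cord, and higher in the KO-labelled than in the WT-labelled column.

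Peaks of TAF9B and RNA POL2 in WT motor neuron EBs were searched within 50 kb of each gene. The lists held 10415 TAF9B and 8620 RNA POL2 peaks, with median scores of 83.3 and 134. No peak of either factor lay within 50 kb of *Hbb-y*, *Hbb-bh1* or the adult beta genes, and the nearest was 1125 kb from *Hbb-b2*. In the alpha cluster no TAF9B peak lay within 50 kb, and the nearest RNA POL2 peak, with a score of 409, was 8.6 kb from *Hba-x* and 0.136 kb from the start of *Nprl3*, the neighbouring gene whose introns hold the alpha globin enhancers.

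Of the genes studied, only *Klf1* had a peak within it. A TAF9B peak with a score of 91.9 lay within *Klf1*, centred 1.32 kb after its start, and all 248 of its bases were coding sequence of 1 exon. Its sequence is shown because it is the only peak inside these genes.
Klf1 peak (mm9, chr8:87427028-87427275, plus strand): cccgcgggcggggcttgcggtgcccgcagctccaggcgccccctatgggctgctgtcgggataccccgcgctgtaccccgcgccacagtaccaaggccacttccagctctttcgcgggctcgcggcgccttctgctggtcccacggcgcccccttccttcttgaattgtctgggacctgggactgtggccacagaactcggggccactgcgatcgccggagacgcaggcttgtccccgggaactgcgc

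This stretch was 70.2% G and C and held none of the 4 motifs searched above. No RNA POL2 peak lay nearer to *Klf1* than 44.6 kb, and in WT-labelled day 6 EBs, of another line and day than the peaks, its transcript was at 0.192 FPKM. The other TAF9B peaks near these genes lay closer to other starts, such as the one 0.354 kb from *2310047B19Rik* and 2.68 kb from *Epor*, or the one 0.077 kb from *Pfkfb1* and 17.4 kb from *Alas2*. In all, 4 of the 9 genes had a TAF9B peak within 50 kb (*Alas2*, *Klf1*, *Epor* and *Slc4a1*) and 7 an RNA POL2 peak. Of all 23152 loci in the expression tables, 60% had a TAF9B peak and 59.4% an RNA POL2 peak within this distance. Within 10 kb the counts of the 9 genes were 2 (*Klf1* and *Epor*) and 2 (*Hba-x* and *Epor*), beside 39.9% and 44.1% of all loci.

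**Figure D4:**
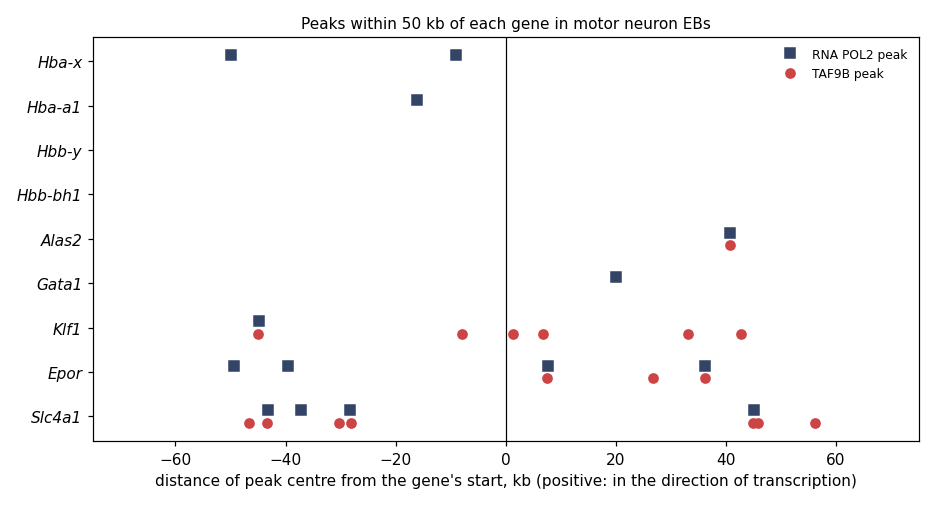
Distance in kb (horizontal) from the start of each gene (vertical) to the centre of each RNA POL2 peak (blue squares) and TAF9B peak (red circles) within 50 kb of the gene in WT motor neuron EBs, positive in the direction of transcription. *Hbb-y* and *Hbb-bh1* have no peak in this range, and the TAF9B peak 1.32 kb after the *Klf1* start is the only one inside a gene.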

How the data were processed

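Poly-A RNA-seq libraries were mapped to RefSeq genes (mm9) by the authors with TopHat and quantified with Cuffdiff. The values in the deposited tables are FPKM, normalized within each of 6 tables of 2 libraries. Columns of the authors' own fold changes and p-values were not used. TAF9B and RNA POL2 ChIP-seq reads were mapped with Bowtie and peaks called with MACS by the authors, with 1 score per peak in the deposited lists. Versions are not given in the sources used here. No IgG values were used.

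Values were read in Python 3.11.15 with pandas 2.3.3. With 1 library per condition there was no test, so "past 2-fold" describes 2 libraries. Ratios had no pseudocount. A gene counted as expressed when either library of a comparison exceeded 1 FPKM, and loci with status HIDATA or FAIL (13 to 71 per table) were left out. Depth is unknown. The commonest ratio between libraries among low loci covered at most 3.59% of them, so whole reads could not be recovered. The ES cell WT library is in 2 tables; values come from the table with KO unless cord is compared. The 9 genes and all lists were chosen with earlier results of these data known. All 9 genes were named, list genes mainly by highest or lowest ratio, and the loci with the most similar profiles by rank. Scaling by FPKM sum was added after seeing the data. The counting was tested on simulated data. Some genes of the membrane list are not reported here and stayed out of its counts.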

Additional observations from a re-analysis of the deposited data

Results flagged for a closer look

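*Epor* was the only gene of the 9 above 1 FPKM in the comparisons of the labels in culture, so no other could be set against spinal column, and its difference ran in opposite directions there. Its log2 ratio of KO- over WT-labelled was 2.11 in newborn spinal column, and -0.22 in ES cells, -0.24 in day 2 EBs, -0.0043 in day 4 EBs and -0.52 in day 6 EBs. The day 4 value became 0.04 when scaled by the FPKM sum. Each value compares 1 library with 1, and the difference between tissues was not tested.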

How the results depend on the processing

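No paired analysis was possible because each condition had 1 library, and no library could be left out for the same reason. Of 200 alternative values, 174 stayed within 0.5 (log2, medians) or 1.5 times (counts and shares) of the value reported. Part of these could not move. The fold setting does not enter a median, no globin row had status HIDATA, and the culture comparisons counted 1 gene or none. The median past 2-fold, 4.29 in cord over ES cells, kept its sign. That of WT-labelled day 6 EBs over ES cells went from 0.07 to -0.34 when scaled by the FPKM sum. Without the 1 FPKM filter, only genes above 0 in both libraries were counted. These were 7 on day 4 and in spinal column and 6 in each other comparison. Between the labels, 2 were past 2-fold lower on day 2 and 3 higher on day 4 (median 0.91). On day 6 it was 1 higher and 1 lower, and in spinal column 4 higher. There were 2 lower in cord over ES cells (median 1.51) and 1 higher in column over cord. Day 6 EBs over ES cells had 1 higher and 1 lower under each label. The share of all loci past 2-fold was not counted without the filter, so these counts have no background. At 1.5-fold with the filter, 3 of 4 genes were higher in KO- over WT-labelled column and 3 of 3 in column over cord. The share of all expressed genes at 1.5-fold was not counted. At 2-fold, centring on the median of all genes gave 1 (*Slc4a1*) in column over cord, from 0. Scaling by the FPKM sum gave medians of 0.22 in spinal column and 4.92 in cord over ES cells, where adding 0.1 or 1 FPKM gave 3.74 and 2.09 and the latter left 0 genes lower. Adding 1 FPKM left 1 of 47 other erythroid genes lower in the KO-labelled column, from 2. With 1 locus per symbol the embryonic share was 33.3% in WT-labelled day 4 and 41.8% in KO-labelled day 6 EBs. Within 10 kb, 2 genes had an RNA POL2 peak and 2 a TAF9B peak. Apart from what each alternative adds or removes by construction, the cause was not tested.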

Other observations

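Lymphoid genes were also measured in the newborn columns. *Vpreb1*, of the precursor B cell receptor, was at 1.05 FPKM in the KO-labelled column and 0.0645 in the WT-labelled one, and *Cd79b* at 3.17 and 1.54, while *Cd79a*, its partner chain, was at 1.77 and 2.17. The antioxidant *Prdx2*, abundant in red cells and in other tissues, was at 450 and 251 FPKM in the 2 columns. In culture it was at 286 in KO-labelled and 744 in WT-labelled day 6 EBs, where adult beta globin was listed at 0.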
